A study of Mus musculus with 13 samples.

Results

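Induced pluripotent stem (iPS) cells of mouse line 6C were compared with cells of the same line still under doxycycline (Dox) late in reprogramming. The comparison rested on 4 of the 13 arrays of the study, 2 of iPS cells and 2 of late Dox-treated cells, all taken by their sample labels. The first iPS array held 6C secondary cells at day 30 of the course, converted into a Dox-independent state. The second held 6C primary iPS cells, which have no day and are not labelled as part of that secondary course. The descriptions of both iPS samples say Dox independent, but the agent given for both is Dox. Whether Dox was in the medium at harvest is therefore not settled. The late Dox arrays held 6C secondary fibroblasts at days 16 and 21 of treatment with 1.5 µg/ml Dox, which switches on reprogramming factors placed behind a Dox-inducible promoter. Cells of every group were grown in mouse embryonic stem (ES) cell medium and split every 2 to 3 days. Each condition had 1 array, no separate cultures or animals are named, and both iPS samples belong to the single line 6C. The spread within a group therefore held the difference between a secondary and a primary iPS sample, or between days 16 and 21. A further 3 untreated arrays (parental fibroblasts, 6C day 0 and 1B day 0) gave a baseline, called here the untreated mean. Line 1B is a second secondary line, with 1 array at day 5 of Dox and 1 after 5 days of Dox and 5 days without it.

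In a secondary system, fibroblasts that already carry the inducible factors are taken from embryos made with a first set of iPS cells, so that most cells receive the factors together. Reprogramming is known to pass through early loss of fibroblast character and gain of epithelial character, and to end when the cell's own pluripotency network sustains itself without the introduced factors. Methylated promoters of pluripotency and germline genes are among the last to open on that route. The question put to these arrays is which genes separated the stable iPS state from cells that had been under the factors for more than 2 weeks.

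Levels are the deposited log2 values, per transcript cluster, which is the array's unit for 1 gene. A cluster was called when limma, fitted over all 13 arrays in 7 groups, gave a Benjamini-Hochberg adjusted p under 0.05 and the group means differed by at least 2-fold. Of 23332 clusters, 195 were higher in iPS cells (0.836%) and 302 were lower (1.29%), while 3502 had an unadjusted p under 0.05. All 195 and all 302 had groups that did not overlap, a state that 21.5% of all clusters met upwards and 22.9% met downwards. The calls were made on these same arrays, so this followed largely from the calling rule and is a description. The median called difference was 2.03 among the higher and -2.12 among the lower clusters. Between the runs read from the array names, only run 2 held both groups. There primary iPS cells lay over 2-fold from day 16 in the called direction for 193 of the 195 and 302 of the 302 clusters. Both arrays of this pair entered the calls, so that count was largely fixed by the calling rule and was not a test of run. Over all clusters that pair differed by over 2-fold upwards at 8.08% and downwards at 13.8%. Secondary iPS cells against day 21, from different runs, did so at 9.04% and 7.54%. The median difference over all clusters was -0.003.

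The calls leaned on the spread pooled over the other arrays. With the 4 arrays alone limma called 0 in either direction, the lowest adjusted p being 0.0524, with 1377 higher and 1892 lower clusters at an unadjusted p under 0.05. With run as a block it also called 0, with 1380 higher and 2388 lower at an unadjusted p under 0.05. The day 16 array carried most weight: without it 19 higher and 9 lower clusters were called, against 61 and 38 without day 21, 152 and 285 without the secondary and 109 and 44 without the primary iPS array. For the named genes that were called, direction was the same in each of these fits, but calls were lost: of 71 such genes, 44 passed without the secondary iPS array, 34 without the primary, 12 without day 16, 32 without day 21, and 0 with the 4 arrays alone or with run as a block. Through all 4 fits that left out 1 array, 17 higher and 6 lower clusters were called each time, among them Slc7a7, Ina, Dazl, Dppa2, Nodal, Mageb16, Phlda2, Taf7l and Mov10l1 upwards and Avil, Lipm and Cyp4f39 downwards.

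**Figure D1:**
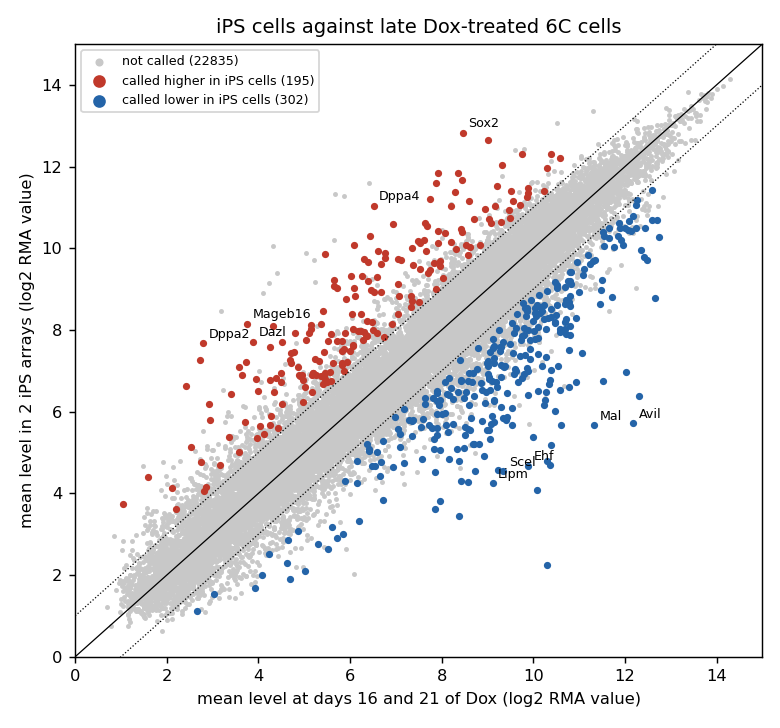
Mean level in the 2 iPS arrays (vertical, log2) against the mean at days 16 and 21 of Dox in 6C (horizontal, log2), 1 point per transcript cluster, with red for the 195 called higher and blue for the 302 called lower in iPS cells. The solid line marks equal levels and the dotted lines 2-fold differences, and both colours reach from low to high levels.

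Of the 4 reprogramming factors, Sox2 alone was called, higher in iPS cells. Sox2, a core pluripotency factor, stood at 13.03 in secondary and 12.63 in primary iPS cells, against 7.48 at day 16 and 9.45 at day 21, with an untreated mean of 6.66. Its 2 iPS arrays lay over 3 log2 units above the higher late array, and the 2 late arrays lay 1.96 apart. It was 4.37 (SE 0.84, adjusted p = 0.0371) higher in iPS cells. That call was lost without the 1B arrays and in each of the 4 fits without 1 iPS or late array. Pou5f1 (Oct4), its partner at pluripotency enhancers, stood at 12.26 in secondary and 13.04 in primary iPS cells, against 13.46 at day 16 and 13.42 at day 21, with an untreated mean of 5.59. Here both iPS arrays lay below both late arrays, and the difference of -0.79 (SE 0.53, adjusted p = 0.573) did not pass. Klf4 differed by -0.21 (SE 0.37, adjusted p = 0.887) and Myc by -0.13 (SE 0.40, adjusted p = 0.953), with overlapping groups. Early in the 6C Dox course only Pou5f1 stood far above its untreated mean, at 12.58 on day 2. On that day Sox2 stood at 6.46, Klf4 at 9.27 and Myc at 11.15. The untreated means of Klf4 and Myc were 9.11 and 11.055. In 1B, Pou5f1 stood at 13.16 at day 5 of Dox and 6.41 after withdrawal. An array probe can read RNA from the genome or from an introduced copy carrying the same sequence. For each factor, which of these was measured was not tested.

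Among 29 measured pluripotency regulators, 12 were called higher in iPS cells and none lower, against 1.15% of all 14860 single genes called higher and 1.62% called lower. Their median difference was 1.75, against -0.013 over all genes. The 12 were Zfp42, Lin28a, Nodal, Dnmt3l, Klf2, Lefty1, Tcl1, Fgf4, Klf5, Foxd3, Eras and Mybl2. Zfp42 (Rex1), a zinc finger marker of the naive state, stood at 11.61 in secondary and 12.09 in primary iPS cells, against 7.57 at day 16 and 8.25 at day 21, a difference of 3.94 (SE 0.73, adjusted p = 0.0334). Lin28a, the RNA-binding protein that blocks let-7 maturation, stood at 11.44 in secondary and 10.98 in primary iPS cells, against 7.46 at day 16 and 8.03 at day 21, a difference of 3.47 (SE 0.36, adjusted p = 0.00455). Nodal, a TGF-beta family ligand of the early embryo, stood at 9.95 in secondary and 9.56 in primary iPS cells, against 6.85 at day 16 and 6.70 at day 21, a difference of 2.98 (SE 0.26, adjusted p = 0.00192). For Nodal the late arrays were still within 2-fold of the untreated mean of 5.99, whereas Zfp42 was already far above its untreated mean of 4.40. Lefty1, the secreted Nodal antagonist, stood at 12.58 in secondary and 10.75 in primary iPS cells, against 7.97 at day 16 and 8.93 at day 21, a difference of 3.21 (SE 0.56, adjusted p = 0.0277). Klf2, a naive-state factor related to Klf4, stood at 10.54 in secondary and 10.55 in primary iPS cells, against 7.43 at day 16 and 7.91 at day 21 and differed by 2.87 (SE 0.48, adjusted p = 0.0238). Its late arrays lay below the untreated mean of 8.59, and its iPS arrays above it. Untreated levels of Klf2 were spread, at 9.59 in parental fibroblasts and 7.87 at 6C day 0, the second close to day 21.

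Other regulators did not pass, and of these Nanog had covered most of the way to its iPS level by the late Dox days. Nanog, the homeodomain factor of the naive network, stood at 13.12 in secondary and 13.22 in primary iPS cells, against 11.96 at day 16 and 12.42 at day 21, with an untreated mean of 5.95, and its difference of 0.98 (SE 0.60, adjusted p = 0.522) did not pass. Tdgf1, the Nodal co-receptor, stood at 13.49 in secondary and 13.23 in primary iPS cells, against 10.49 at day 16 and 12.11 at day 21, a difference of 2.06 (SE 0.88, adjusted p = 0.318). Utf1, a chromatin-bound protein of ES cells, stood at 12.44 in secondary and 12.36 in primary iPS cells, against 8.89 at day 16 and 10.28 at day 21, a difference of 2.81 (SE 0.69, adjusted p = 0.0828). None of the 3 had overlapping groups, and none passed the test. Esrrb, an orphan nuclear receptor of the naive network, differed by 1.78 (SE 0.70, adjusted p = 0.271) and Otx2, a factor of the later epiblast, by 2.14 (SE 0.64, adjusted p = 0.144). Leaving out 1 array left 7 (secondary iPS), 4 (primary iPS), 2 (day 16) or 4 (day 21) of the 29 regulators called higher, and the median of the list stayed between 1.50 and 2.01.

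Among the genes that differed most were Dppa2 and Dppa4, paired SAP-domain proteins that bind DNA in ES cells. Dppa2 stood at 8.12 in secondary and 7.22 in primary iPS cells, against 2.28 at day 16 and 3.31 at day 21, with an untreated mean of 1.72. Its difference of 4.88 (SE 0.47, adjusted p = 0.00369) was the largest among called higher clusters. Dppa4 stood at 10.80 in secondary and 11.29 in primary iPS cells, against 6.17 at day 16 and 6.86 at day 21, with an untreated mean of 2.20, a difference of 4.53 (SE 0.72, adjusted p = 0.0206). The 2 genes parted before the iPS state: Dppa4 on the late arrays lay over 3 log2 units above the untreated mean, while Dppa2 at day 16 lay within 1 unit of it. Dppa4, Dppa2 and Morc1 are consecutive protein-coding genes on chromosome 16 in the GRCm38.p6 annotation, and Morc1, a germline ATPase of transposon silencing, was named after its values were seen. Morc1 stood at 10.19 in secondary and 10.19 in primary iPS cells, against 7.12 at day 16 and 7.86 at day 21, a difference of 2.70 (SE 0.34, adjusted p = 0.00904). Dppa3 (Stella), a maternal and germ cell protein elsewhere in the genome, differed by 1.52 (SE 0.32, adjusted p = 0.0497), and the other 2 measured members, Dppa1 and Dppa5a, did not pass. Dppa2 was the only member of the list called without day 16, with an adjusted p of 0.0418, against 0.157 for Dppa4 and 0.238 for Dppa3. A filter on low values, which kept clusters whose mean over the 13 arrays was at least 6.55, the median cluster mean, kept none of the 5 measured members. Of 4 measured genes of the cleavage-stage embryo, 2 were higher, Zfp42 again and Pramel13. Pramel13 stood at 9.70 in secondary and 8.96 in primary iPS cells, against 5.81 at day 16 and 6.72 at day 21. The other measured members, Eif1a and Arg2, differed by 0.50 and 0.315 and were not called, and no Zscan4 gene was measured.

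**Figure D2:**
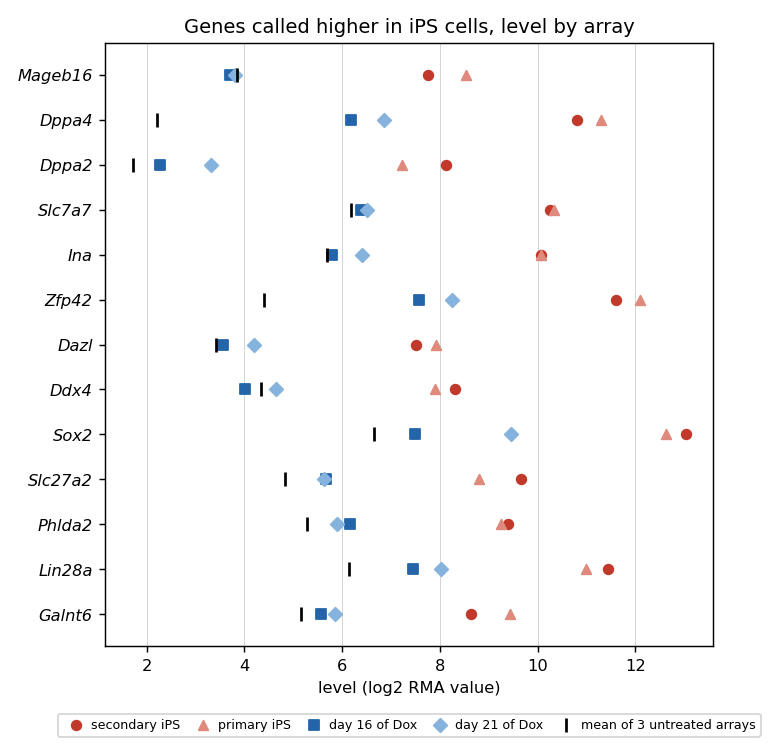
Level (log2, horizontal) of 13 genes called higher in iPS cells, 1 row per gene, with red circles and triangles for secondary and primary iPS cells, blue squares and diamonds for days 16 and 21 of Dox, and a black bar for the mean of the 3 untreated arrays. In every row both iPS marks lie right of both blue marks, and for genes such as Mageb16, Slc7a7, Ina and Dazl the blue marks sit close to the black bar.

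Germline genes are genes of germ cells, meiosis and the piRNA pathway that silences transposons, many of them kept shut by promoter methylation in somatic cells. Of 26 measured, 11 were higher in iPS cells and none lower, with a median difference of 1.76. Over all 14860 single genes, 1.15% were called higher and 1.62% lower, which is the background for this and every other list. The filter on low values kept 4 of the 26, of which 1 was called, with a median of 1.09. Dazl, an RNA-binding protein of germ cells, stood at 7.52 in secondary and 7.92 in primary iPS cells, against 3.57 at day 16 and 4.19 at day 21, with an untreated mean of 3.42. The difference was 3.84 (SE 0.27, adjusted p = 0.00088), and neither late array lay over 2-fold above the untreated mean. Ddx4 (Vasa), the germ cell RNA helicase, stood at 8.30 in secondary and 7.89 in primary iPS cells, against 4.003 at day 16 and 4.65 at day 21, with an untreated mean of 4.34, a difference of 3.77 (SE 0.71, adjusted p = 0.0345). Its late arrays lay on either side of the untreated mean. The untreated arrays of Ddx4 were spread, at 5.78 in parental fibroblasts, 3.28 at 6C day 0 and 3.95 at 1B day 0. Day 21 lay over 2-fold above 6C day 0. Stk31, a tudor-domain protein of the testis, stood at 6.68 in secondary and 5.68 in primary iPS cells, against 2.84 at day 16 and 3.01 at day 21, a difference of 3.26 (SE 0.33, adjusted p = 0.00406). Taf7l, a germ cell form of a TFIID subunit, stood at 6.08 in secondary and 6.77 in primary iPS cells, against 3.24 at day 16 and 3.55 at day 21, a difference of 3.03 (SE 0.27, adjusted p = 0.0027). Tex11, a meiotic recombination protein on the X chromosome, stood at 7.47 in secondary and 6.33 in primary iPS cells, against 3.43 at day 16 and 3.84 at day 21, a difference of 3.27 (SE 0.35, adjusted p = 0.00511). These 5 genes and Sycp1 and Mov10l1 were the 7 list members that stayed within 2-fold of the untreated mean on both late arrays and moved by over 2-fold in both iPS arrays, as 0.84% of all clusters did upwards.

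The remaining called members had left the untreated level on at least 1 late array. Sycp3, a component of the synaptonemal complex that joins chromosomes in meiosis, stood at 7.08 in secondary and 7.36 in primary iPS cells, against 2.61 at day 16 and 4.83 at day 21, with an untreated mean of 2.65. Day 16 was at the untreated level and day 21 over 2 units above it, and the difference to iPS cells was 3.50 (SE 0.58, adjusted p = 0.0231). Mael, a piRNA pathway protein, stood at 8.66 in secondary and 6.53 in primary iPS cells, against 3.65 at day 16 and 4.85 at day 21, a difference of 3.35 (SE 0.61, adjusted p = 0.0323). In Mael, too, day 21 lay above day 16. Tex19.1 differed by 2.80 (SE 0.35, adjusted p = 0.00913) and Tdrd12, another piRNA pathway protein, by 2.92 (SE 0.47, adjusted p = 0.0219). Hormad1, a protein of the meiotic chromosome axis, stood at 10.04 in secondary and 9.36 in primary iPS cells, against 3.38 at day 16 and 7.04 at day 21, and with its late arrays 3.66 apart the difference of 4.49 (SE 1.08, adjusted p = 0.0772) did not pass. The germ cell genes Nanos3 and Prdm1 differed by 0.44 and 0.66 without passing, and Brdt, a testis bromodomain protein, by 0.24. Without day 16 only 3 of the 26 were called, against 9 without day 21, 6 without secondary and 10 without primary iPS cells, and the median stayed between 1.51 and 1.92.

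Promoter sequence was available for 10 of the 11 called germline genes and is shown because a motif that the choice of genes did not use recurred in it. The E-box CACGTG, its own reverse complement and so read on both strands at once, lay within the window of 250 bases before to 50 after the gene start in 7 of the 10. That is 70.0%, against 4 of the 13 germline genes with a window that were not called (30.8%), 10.1% of the 11894 array genes with a window and 7.15% of all windows in the table. Outside the germline list, 12 of 121 called higher genes with a window held it (9.92%), and among called lower genes it was 15 of 188 (7.98%). In every one of the 7 the motif began upstream of the start, 29 bases before it in Ddx4, 49 in Taf7l, 94 in Sycp1, and 64 and 43 in Sycp3, which held it at 2 places. The windows of Dazl, Tdrd12 and Tex19.1 held none. A match of letters is a description and no binding was measured here. The 250 bases upstream of the start are given from RefSeq on GRCm38.p6 for 5 of these genes, 5′ to 3′ on the strand of the gene, with CACGTG in capitals. They come from chr13:112652311-112652560 (minus strand), chr10:88459337-88459586 (plus), chrX:134476491-134476740 (minus), chr3:102936101-102936350 (minus) and chr17:50293621-50293870 (minus).
Ddx4: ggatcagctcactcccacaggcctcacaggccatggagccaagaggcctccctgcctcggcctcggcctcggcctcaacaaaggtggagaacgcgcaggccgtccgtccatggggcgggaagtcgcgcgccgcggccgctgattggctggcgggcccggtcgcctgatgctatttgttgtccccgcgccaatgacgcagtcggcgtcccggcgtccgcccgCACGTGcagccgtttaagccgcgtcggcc
Sycp3: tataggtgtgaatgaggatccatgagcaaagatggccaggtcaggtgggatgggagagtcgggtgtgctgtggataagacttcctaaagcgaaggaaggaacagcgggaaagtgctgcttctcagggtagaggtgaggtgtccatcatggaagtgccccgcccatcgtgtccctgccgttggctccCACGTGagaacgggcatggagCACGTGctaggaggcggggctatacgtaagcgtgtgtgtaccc
Taf7l: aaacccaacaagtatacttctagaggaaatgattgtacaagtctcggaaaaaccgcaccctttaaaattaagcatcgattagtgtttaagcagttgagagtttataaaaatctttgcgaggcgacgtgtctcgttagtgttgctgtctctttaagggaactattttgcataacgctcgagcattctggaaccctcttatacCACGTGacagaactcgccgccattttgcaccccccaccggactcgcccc
Sycp1: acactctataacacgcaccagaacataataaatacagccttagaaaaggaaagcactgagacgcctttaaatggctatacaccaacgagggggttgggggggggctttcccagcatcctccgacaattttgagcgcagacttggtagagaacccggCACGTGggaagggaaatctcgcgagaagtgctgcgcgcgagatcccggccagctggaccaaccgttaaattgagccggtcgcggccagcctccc
Dazl: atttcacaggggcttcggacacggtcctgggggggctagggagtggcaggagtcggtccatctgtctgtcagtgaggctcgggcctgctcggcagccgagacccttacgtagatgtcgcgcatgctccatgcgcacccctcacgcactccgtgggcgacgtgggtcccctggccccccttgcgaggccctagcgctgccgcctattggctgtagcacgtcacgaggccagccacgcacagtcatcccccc

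Other motifs were searched on both strands in the same windows. TCCCGC, the core bound by E2F6 and related factors, lay in 5 of the 10 called germline genes, against 32.7% of array genes with a window. GCCNNNGGC, the core bound by AP-2 factors, lay in 27.1% of called lower genes and 24.98% of array genes. The octamer ATGCAAAT, bound by POU factors such as Oct4, lay in 3.82% of called higher and 1.96% of array genes, and AACCGGTT, a sequence bound by grainyhead-like factors, in none of the called genes and 0.244% of array genes. Each motif was counted by itself, so that overlapping matches of 2 motifs counted for both.

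Chromatin regulators moved in smaller numbers. Of 8 measured DNA methylation enzymes, 2 were higher, against 1.15% of all 14860 single genes. Dnmt3l, the catalytically inactive partner of the de novo methyltransferases, stood at 11.47 in secondary and 11.70 in primary iPS cells, against 6.99 at day 16 and 8.78 at day 21, a difference of 3.70 (SE 0.50, adjusted p = 0.0118). Dnmt3b, a de novo methyltransferase of the early embryo, stood at 11.59 in secondary and 10.71 in primary iPS cells, against 8.77 at day 16 and 8.40 at day 21, a difference of 2.56 (SE 0.50, adjusted p = 0.0376). Tet3, an oxidase of methylcytosine, ran the other way, at 6.47 in secondary and 6.48 in primary iPS cells, against 8.40 at day 16 and 8.33 at day 21, and its difference of -1.88 (SE 0.42, adjusted p = 0.061) did not pass in this fit. It did pass after quantile normalization, after centring of each array and after the filter on low values, each of which gave 1 enzyme lower. Of 21 Polycomb genes, 3 were higher: Mtf2, a subunit that guides Polycomb repressive complex 2 to CpG islands, by 1.62 (SE 0.20, adjusted p = 0.00913), L3mbtl2 by 1.68 (SE 0.26, adjusted p = 0.0198) and Cbx7, the chromobox protein typical of ES cells, by 1.95 (SE 0.41, adjusted p = 0.0497). All 3 had groups that did not overlap, as every called cluster did, and their calls depended on both late arrays. Over the list of 21, groups did not overlap for 13 upwards and 5 downwards, against 3476 and 3756 of all 14860 single genes. None of the 21 was called lower in this fit, but 1 was after quantile normalization or centring, and 2 under the filter on low values. Those 3 fits called 5, 3 and 5 of the list higher. Kdm2b, which recruits a Polycomb complex to unmethylated CpG islands, stood at 9.74 in secondary and 10.24 in primary iPS cells, against 8.28 at day 16 and 8.33 at day 21, a difference of 1.69 (SE 0.29, adjusted p = 0.0264). With the deacetylase Sirt1 and Dnmt3b it made 3 of 20 chromatin remodelling genes that were higher, and none was lower. Without the 1B arrays none of the 20 was called, and the calls also depended on the primary iPS array and both late arrays.

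Of 18 FGF and LIF pathway genes, 3 ligands were called higher and none lower, although without the secondary iPS array 2 were called lower. Groups did not overlap for 9 of the 18 upwards and 4 downwards, against 3476 and 3756 of all 14860 single genes. Of those single genes, 1.15% were called higher and 1.62% lower. Fgf4, the ligand that primes ES cells for differentiation, stood at 10.99 in secondary and 11.31 in primary iPS cells, against 9.29 at day 16 and 9.82 at day 21, a difference of 1.59 (SE 0.33, adjusted p = 0.0489). Fgf15 stood at 9.59 in secondary and 8.68 in primary iPS cells, against 7.11 at day 16 and 6.997 at day 21, a difference of 2.08 (SE 0.32, adjusted p = 0.0184), and Fgf17 differed by 1.67 (SE 0.32, adjusted p = 0.0357). Fgf4 and Fgf15 are neighbours on chromosome 7, as Nodal and Pald1 are on chromosome 10 among called higher genes. All 3 ligands lost their call without day 16 or without day 21. In the BMP list of 18, Bmp4 was higher, at 8.60 in secondary and 10.87 in primary iPS cells, against 6.33 at day 16 and 6.28 at day 21, a difference of 3.42 (SE 0.69, adjusted p = 0.0441). Its iPS arrays lay 2.27 apart and on either side of the untreated mean of 8.96, so it was the late Dox arrays that stood low. Its call was kept without the secondary iPS array and lost without the primary one, day 16, day 21 or the 1B arrays. Bmpr2, a BMP receptor, was lower, at 9.09 in secondary and 8.98 in primary iPS cells, against 10.49 at day 16 and 10.55 at day 21, a difference of -1.49 (SE 0.30, adjusted p = 0.0446). That call was lost after quantile normalization, after centring and in each of the 4 fits without 1 iPS or late array. Of 22 Wnt and 17 TGF-beta genes limma called 0, with 3 and 4 at an unadjusted p under 0.05.

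A further count was of clusters near the untreated level on the late Dox days and away from the late level in iPS cells. To be counted, a cluster had to lie within 2-fold of the untreated mean on both late arrays and over 2-fold beyond both late arrays in both iPS arrays. There were 196 such clusters upwards (0.84%) and 247 downwards (1.06%), of which limma called 108 and 111. The iPS mean itself lay within 2-fold of the untreated mean for 17 of the 196 and 54 of the 247. On every sampled Dox day from 2 to 21, 154 of the 196 and 174 of the 247 stayed within 2-fold of the untreated mean. Mageb16, a melanoma-antigen family gene on the X chromosome, stood at 7.77 in secondary and 8.53 in primary iPS cells, against 3.71 at day 16 and 3.80 at day 21, with an untreated mean of 3.85, a difference of 4.39 (SE 0.36, adjusted p = 0.00192). Its late arrays and the untreated mean lay within 0.2 of each other. Slc7a7, a subunit of a transporter for basic amino acids, stood at 10.26 in secondary and 10.33 in primary iPS cells, against 6.38 at day 16 and 6.50 at day 21, with an untreated mean of 6.19, a difference of 3.85 (SE 0.24, adjusted p = 0.000353). Ina, the neuronal intermediate filament protein internexin alpha, stood at 10.07 in secondary and 10.07 in primary iPS cells, against 5.79 at day 16 and 6.40 at day 21, with an untreated mean of 5.70, a difference of 3.98 (SE 0.24, adjusted p = 0.000353). Both had iPS arrays within 0.1 of each other. Phlda2, an imprinted gene that limits placental growth, stood at 9.40 in secondary and 9.26 in primary iPS cells, against 6.15 at day 16 and 5.90 at day 21, a difference of 3.31 (SE 0.28, adjusted p = 0.00192). Slc27a2, a fatty acid transport protein, differed by 3.58 (SE 0.38, adjusted p = 0.00472), and Galnt6, an enzyme that starts O-linked glycosylation, by 3.32 (SE 0.38, adjusted p = 0.00703). Phlda2 and Magel2 were the 2 of 15 imprinted genes called higher. None was called lower in this fit, but 1 was after quantile normalization, centring, the filter on low values or trend with robust moderation, and under the filter none was called higher. Courses were not flat on the earlier days for Slc27a2, at 6.54 on day 11 against an untreated mean of 4.82, for Mageb16, at 2.20 on day 8, or for Galnt6, at 6.25 on day 8 against 5.15.

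Of the 195 called higher clusters as a whole, the late mean was within 2-fold of the untreated mean for 134, above it for 50 and below it for 11. The 50 had covered a median of 43.9% of the way to the iPS level by the late days. Their earliest day over 2-fold was spread over the course, with 8 clusters first passing on day 2, 5 on day 5, 7 on day 8, 11 on day 11, 14 on day 16 and the last 5 on day 21. Day 21 lay above day 16 for 128 of the 195, against 8840 of all 23332 clusters. The gain within that interval was over 2-fold for 17 of them. These levels are of whole cultures, in which fewer cells of a type and less RNA per cell cannot be told apart.

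**Figure D3:**
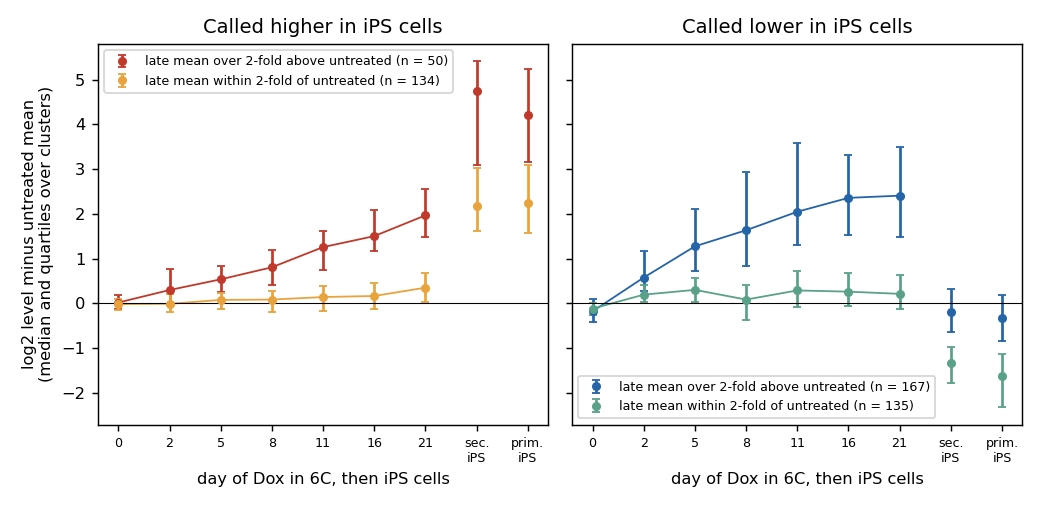
Median log2 level minus the untreated mean (points) with quartiles over clusters (bars), by day of Dox in 6C and in the secondary and primary iPS arrays, for clusters called higher (left) and lower (right), each split by whether the late mean was over 2-fold above the untreated mean. Among the 167 lower clusters that Dox had raised, the median climbed to 2.41 at day 21 and stood at -0.19 and -0.33 in secondary and primary iPS cells.

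The genes that fell in iPS cells were of 2 kinds. For 167 of the 302, the late mean stood over 2-fold above the untreated mean, and the iPS mean lay back within 2-fold of the untreated mean for 122 of them, below it for 29 and above it for 16. For the other 135, the late mean was within 2-fold of the untreated mean, and the iPS mean lay over 2-fold below it for 106. None of the 302 had a late mean over 2-fold below the untreated mean. The 167 had mostly been raised early, 54 first passing 2-fold on day 2, another 54 on day 5, 20 on day 8, 18 on day 11, 18 on day 16 and 3 on day 21. Their median level above the untreated mean was 0.58 on day 2 and 1.28 on day 5, then 1.64 (day 8), 2.05 (day 11), 2.36 (day 16) and 2.41 (day 21). The late groups were chosen high by this split, and these values are a description.

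The 12 called genes with the widest separation were all of the first kind. Avil, an actin-binding protein of the villin family, stood at 5.93 in secondary and 5.52 in primary iPS cells, against 12.10 at day 16 and 12.25 at day 21, with an untreated mean of 5.995. The difference was -6.45 (SE 0.39, adjusted p = 0.000353), and the gene was already at 10.49 on day 2. Mal, a membrane proteolipid of epithelial and myelin rafts, stood at 4.71 in secondary and 6.62 in primary iPS cells, against 11.89 at day 16 and 10.77 at day 21, a difference of -5.67 (SE 0.71, adjusted p = 0.00913). Aldh1a1, an enzyme that makes retinoic acid, stood at 5.10 in secondary and 4.27 in primary iPS cells, against 10.36 at day 16 and 10.39 at day 21, a difference of -5.69 (SE 1.15, adjusted p = 0.0446). Its untreated arrays were spread, 1B day 0 alone being at 8.67. Vtcn1 (B7-H4), a surface inhibitor of T cells, stood at 5.05 in secondary and 5.34 in primary iPS cells, against 10.31 at day 16 and 10.48 at day 21, a difference of -5.20 (SE 0.54, adjusted p = 0.00455). Entpd1 (CD39), an ectoenzyme that breaks down extracellular ATP, stood at 5.41 in secondary and 5.33 in primary iPS cells, against 9.86 at day 16 and 10.13 at day 21, a difference of -4.63 (SE 0.70, adjusted p = 0.0171). Ces2g, a carboxylesterase, differed by -5.51 (SE 0.60, adjusted p = 0.00535), Sgpp2, a phosphatase of sphingosine 1-phosphate, by -4.95 (SE 0.55, adjusted p = 0.00608), and Ahsg, the liver glycoprotein fetuin-A, by -4.47 (SE 0.63, adjusted p = 0.0132). In each of these 8 genes both iPS arrays lay at least 4 log2 units below both late arrays.

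Several of the lower genes belong to the outer skin. Scel encodes sciellin of the cornified envelope and stood at 4.43 in secondary and 4.65 in primary iPS cells, against 9.71 at day 16 and 8.98 at day 21, a difference of -4.81 (SE 0.51, adjusted p = 0.00472). Lipm, a lipase of the upper epidermis, stood at 4.26 in secondary and 4.23 in primary iPS cells, against 9.002 at day 16 and 9.22 at day 21, a difference of -4.86 (SE 0.26, adjusted p = 0.000274). Cyp4f39, a fatty acid hydroxylase of the skin lipid barrier, stood at 6.65 in secondary and 7.30 in primary iPS cells, against 12.18 at day 16 and 11.85 at day 21, with an untreated mean of 5.07, a difference of -5.04 (SE 0.42, adjusted p = 0.00192). Its iPS arrays lay above the untreated mean, unlike those of Lipm and Scel. Abca12, the lipid transporter of keratinocyte lamellar granules, stood at 4.05 in secondary and 4.52 in primary iPS cells, against 9.34 at day 16 and 7.79 at day 21, a difference of -4.28 (SE 0.62, adjusted p = 0.015). In the list of 24 measured keratinocyte genes, 4 were lower and none higher, with a median of -0.72. Of all 14860 single genes, 1.62% were called lower. The 4 were Pkp1, a desmosomal plaque protein, at 6.69 in secondary and 6.53 in primary iPS cells, against 10.91 at day 16 and 10.64 at day 21 with a difference of -4.16 (SE 0.44, adjusted p = 0.00472), and the desmosomal cadherins Dsc2 and Dsg3 with the stress keratin Krt16. Dsc2 stood at 6.58 in secondary and 6.87 in primary iPS cells, against 11.30 at day 16 and 10.54 at day 21 and Dsg3 at 3.73 in secondary and 3.17 in primary iPS cells, against 9.37 at day 16 and 7.39 at day 21, differences of -4.20 (SE 0.70, adjusted p = 0.0235) and -4.94 (SE 0.82, adjusted p = 0.0231). All 3 are parts of desmosomes, the junctions that hold epidermal cells together. Krt16 stood at 4.20 in secondary and 4.88 in primary iPS cells, against 9.92 at day 16 and 7.53 at day 21, a difference of -4.19 (SE 0.74, adjusted p = 0.0293). Day 21 lay below day 16 in Dsg3, Dsc2, Krt16 and Abca12, most in Krt16. The basal keratin Krt14 stood at 5.31 in secondary and 5.63 in primary iPS cells, against 8.38 at day 16 and 5.92 at day 21, a difference of -1.68 (SE 0.64, adjusted p = 0.257) that did not pass. Without day 16 none of the 24 was called and the median was -0.38.

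Ehf and Elf5, ETS family transcription factors of epithelia, are neighbours on chromosome 2 and were both lower. Ehf stood at 4.53 in secondary and 4.83 in primary iPS cells, against 9.90 at day 16 and 9.89 at day 21, with an untreated mean of 4.33, a difference of -5.22 (SE 0.75, adjusted p = 0.0138). Elf5, also a factor of trophoblast stem cells, stood at 5.73 in secondary and 5.64 in primary iPS cells, against 9.55 at day 16 and 9.53 at day 21, with an untreated mean of 5.45, a difference of -3.85 (SE 0.43, adjusted p = 0.00616). In both genes the iPS arrays were within 1 unit of the untreated mean and the late arrays were about alike, but day 5 of Dox stood at 8.95 for Ehf and 6.18 for Elf5. Elf5 was the only 1 of 11 trophoblast genes called. Of 29 measured general epithelial genes, limma called 0 in either direction, with 6 at an unadjusted p under 0.05, and 0 in each alternative fit, and the median difference was -0.45. Groups did not overlap for 13 of the 29 downwards and 3 upwards, against 3756 and 3476 of all 14860 single genes. Cdh1 (E-cadherin) stood at 11.14 in secondary and 11.96 in primary iPS cells, against 11.67 at day 16 and 11.12 at day 21, with an untreated mean of 5.84. Epcam stood at 11.86 in secondary and 11.68 in primary iPS cells, against 12.15 at day 16 and 12.30 at day 21, with an untreated mean of 4.90. Both groups were far above the untreated mean for these 2 genes, and the differences were 0.16 (SE 0.67, adjusted p = 0.968) and -0.45 (SE 1.04, adjusted p = 0.924). The tight junction protein Ocln stood at 6.72 in secondary and 6.67 in primary iPS cells, against 9.15 at day 16 and 9.01 at day 21, a difference of -2.38 (SE 0.81, adjusted p = 0.205) that did not pass although the groups did not overlap.

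Line 1B gave a readout of the first kind outside the 6C Dox course, although its day 0 array entered the untreated mean. Of the 167 clusters, 96 lay over 2-fold above 1B day 0 at day 5 of Dox (57.5%), against 9.5% of all clusters. The 167 were chosen as raised by Dox in 6C, so all clusters are not a like background. Among the 50 called higher clusters that were also raised on the late arrays, 23 lay over 2-fold above 1B day 0 (46.0%). The share was thus not particular to genes lower in iPS cells. After Dox was withdrawn, 73 of the 96 lower clusters were back within 2-fold of 1B day 0 (76.0%), and 19 were still above. That share was close to the 79.5% of all 2215 clusters raised in that line. Avil stood at 10.77 at day 5 of Dox and 5.62 after withdrawal, with 5.97 at day 0. Ehf stood at 8.83 at day 5 and 4.90 after withdrawal, with 4.14 at day 0. Entpd1 was an exception, at 6.60 at day 5 against 5.88 at day 0. Each of these 1B values is of a single array and was not tested.

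**Figure D4:**
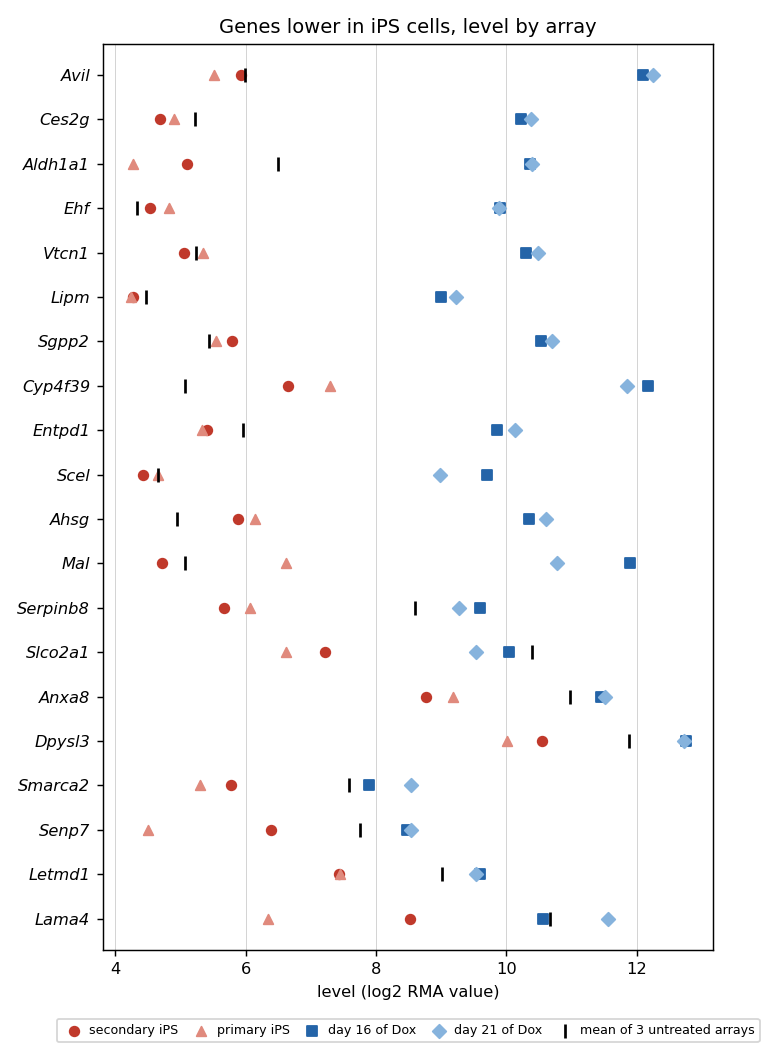
Level (log2, horizontal) of 20 genes lower in iPS cells, 1 row per gene, with red circles and triangles for secondary and primary iPS cells, blue squares and diamonds for days 16 and 21 of Dox, and a black bar for the mean of the 3 untreated arrays. In the upper 12 rows the black bar sits near the iPS marks, and in the lower 8, of which Smarca2 was not called, it sits near the late Dox marks.

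The following 8 genes had the widest gaps among those with both late arrays within 2-fold of the untreated mean. Of the 8, Serpinb8, Smarca2 and Lama4 lay over 2-fold above that mean on an earlier Dox day, at 9.997 on day 11, 9.31 on day 5 and 11.91 on day 5. Serpinb8, a serine protease inhibitor, stood at 5.66 in secondary and 6.06 in primary iPS cells, against 9.60 at day 16 and 9.27 at day 21, with an untreated mean of 8.60, a difference of -3.57 (SE 0.68, adjusted p = 0.0355). Slco2a1, the prostaglandin transporter, stood at 7.22 in secondary and 6.62 in primary iPS cells, against 10.04 at day 16 and 9.54 at day 21, with an untreated mean of 10.39, a difference of -2.87 (SE 0.47, adjusted p = 0.023). Anxa8, an annexin, stood at 8.76 in secondary and 9.19 in primary iPS cells, against 11.45 at day 16 and 11.52 at day 21, with an untreated mean of 10.98, a difference of -2.51 (SE 0.27, adjusted p = 0.00511). In all 3 the late arrays were within 2-fold of untreated cells and the iPS arrays lay over 3-fold lower. Dpysl3, a cytoskeletal protein of growing axons, differed by -2.46 (SE 0.44, adjusted p = 0.0295), Letmd1, a mitochondrial protein, by -2.12 (SE 0.27, adjusted p = 0.00913) and Senp7, a protease that removes SUMO, by -3.07 (SE 0.56, adjusted p = 0.031). Lama4, a laminin chain of basement membranes, stood at 8.52 in secondary and 6.34 in primary iPS cells, against 10.56 at day 16 and 11.56 at day 21, with an untreated mean of 10.66 and with the 2 iPS arrays 2.17 apart, a difference of -3.63 (SE 0.67, adjusted p = 0.0326). Smarca2 (Brm), an ATPase of BAF remodelling complexes, stood at 5.77 in secondary and 5.29 in primary iPS cells, against 7.89 at day 16 and 8.54 at day 21, with an untreated mean of 7.58, and its difference of -2.68 (SE 0.68, adjusted p = 0.0898) did not pass. The Smarca2 groups did not overlap. Cdkn1a (p21), the cell cycle inhibitor induced by p53, stood at 10.90 in secondary and 10.43 in primary iPS cells, against 12.24 at day 16 and 11.94 at day 21, with an untreated mean of 12.08, a difference of -1.43 (SE 0.26, adjusted p = 0.0329). It was the only 1 of 15 inhibitors and p53 targets called.

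Hox genes set position along the body axis and mark the origin of fibroblasts. They gave 3 lower and no higher calls of 28 measured, with a median of -0.58, against 1.62% of all 14860 single genes called lower. Hoxa9 stood at 6.33 in secondary and 5.20 in primary iPS cells, against 8.85 at day 16 and 8.92 at day 21, with an untreated mean of 7.72, a difference of -3.12 (SE 0.42, adjusted p = 0.0112). Hoxa7, its neighbour on chromosome 6, stood at 7.26 in secondary and 6.63 in primary iPS cells, against 8.59 at day 16 and 8.77 at day 21, with an untreated mean of 8.53, a difference of -1.73 (SE 0.28, adjusted p = 0.0212). Hoxc4 stood at 5.96 in secondary and 5.69 in primary iPS cells, against 7.61 at day 16 and 7.58 at day 21, a difference of -1.77 (SE 0.32, adjusted p = 0.0296). In all 3 the late arrays lay at or above the untreated mean. All 3 lost their call without day 16 or without day 21. Among 15 neural genes, Neurod1 and Zic2 were higher by 2.44 (SE 0.39, adjusted p = 0.0219) and 1.35 (SE 0.26, adjusted p = 0.0365), while Zic1 and Map2 were lower by -3.45 (SE 0.46, adjusted p = 0.0108) and -2.14 (SE 0.42, adjusted p = 0.0406). Pecam1, an adhesion molecule of endothelium that ES cells also carry, stood at 10.10 in secondary and 9.23 in primary iPS cells, against 5.76 at day 16 and 7.002 at day 21, a difference of 3.28 (SE 0.42, adjusted p = 0.00936), and was the only 1 of 14 endothelial markers and of 12 surface genes of ES cells called.

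Fibroblast genes gave no calls, and the 2 iPS arrays lay far apart in them. None of 38 mesenchymal and matrix genes was called by limma, with 7 at an unadjusted p under 0.05, although the median difference was -0.97 and within run 2 it was -2.52. Groups did not overlap for 9 of the 38, all downwards. Over all 14860 single genes this held for 3756 downwards and 3476 upwards, so the downward share of the list was near that of all genes. The median level of the list was 9.73 in secondary and 7.15 in primary iPS cells, against 9.83 at day 16 and 9.20 at day 21. Secondary iPS cells exceeded primary iPS cells by a median of 2.23 over the list. Col1a1, the main fibroblast collagen, stood at 11.73 in secondary and 9.22 in primary iPS cells, against 12.42 at day 16 and 11.87 at day 21, with an untreated mean of 13.77, a difference of -1.67 (SE 0.67, adjusted p = 0.279). Pdgfra, a receptor of mesenchymal cells, stood at 7.55 in secondary and 5.23 in primary iPS cells, against 8.13 at day 16 and 7.80 at day 21, with an untreated mean of 9.62, a difference of -1.58 (SE 1.20, adjusted p = 0.63). In both, the secondary iPS array was closer to the late Dox arrays than to the primary iPS array. Without the secondary array 9 of the 38 were lower and the median was -2.15, and without the primary array none was called and the median was 0.16. The 11 smooth muscle genes and 17 TGF-beta genes showed the same split, with medians of -1.43 and -1.08 without the secondary array and of 0.30 and 0.20 without the primary one. Whether fibroblasts remained in the secondary iPS culture was not tested.

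The lists of growth and metabolism gave no calls. The 23 cell cycle genes had a median difference of 0.50 and limma called 0, with 8 at an unadjusted p under 0.05, led by the replication helicase subunit Mcm5 at 11.73 in secondary and 11.996 in primary iPS cells, against 10.82 at day 16 and 10.40 at day 21, a difference of 1.25 (SE 0.34, adjusted p = 0.107). Groups did not overlap for 16 of the 23 upwards and 2 downwards, and without the secondary iPS array 2 were called lower. Of 11 glycolysis and 14 oxidative phosphorylation genes limma called 0, with 1 and 2 at an unadjusted p under 0.05. In the oxidative phosphorylation list groups did not overlap for 3 upwards and 7 downwards. For this list and the cell cycle list, the background was 3476 upwards and 3756 downwards of all 14860 single genes. Of 14 macrophage and blood markers limma called 0, with 0 at an unadjusted p under 0.05. The pan-leukocyte gene Ptprc stood at 4.12 in secondary and 4.09 in primary iPS cells, against 4.62 at day 16 and 4.02 at day 21. These levels were below the medians of the arrays (6.36 to 6.57), but not all members were low. The highest value of the list was 9.55 in secondary and 11.48 in primary iPS cells, 11.21 at day 16 and 11.69 at day 21. Of 19 mesoderm and endoderm genes limma called 0, with 3 at an unadjusted p under 0.05, and of 15 interferon response genes 0, with 0 at that p.

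**Figure D5:**
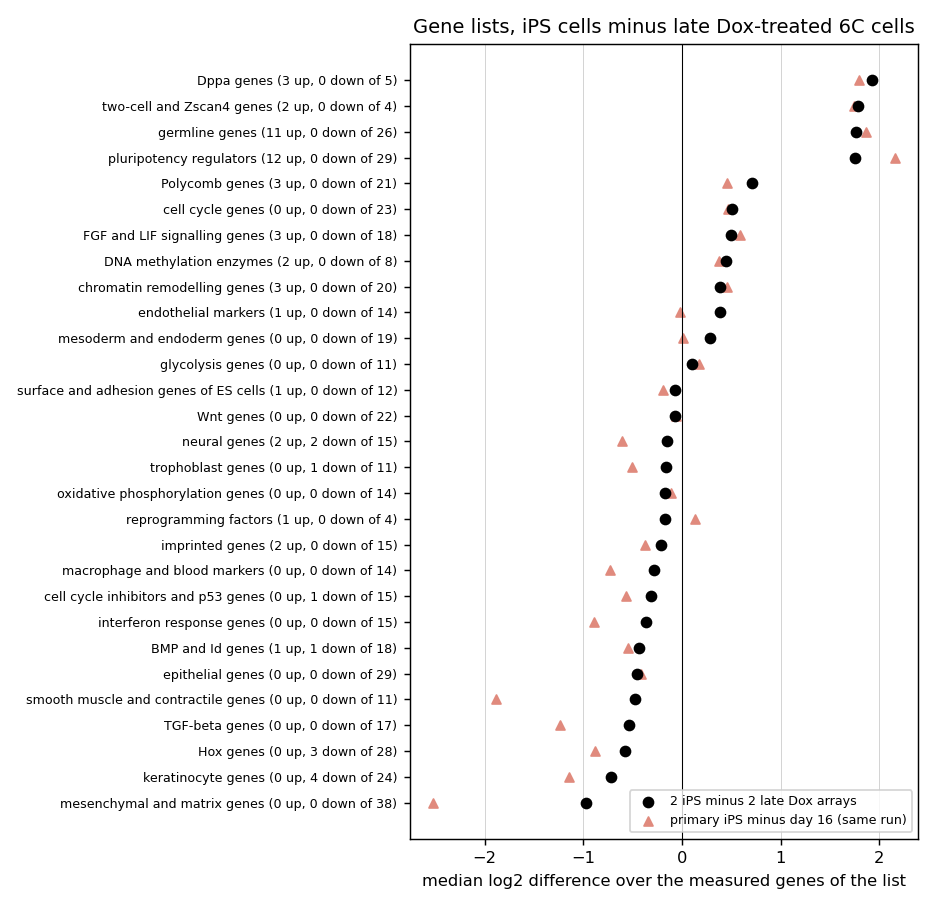
Median log2 difference over the measured genes of each list, iPS minus late Dox-treated cells, as black dots for 2 against 2 arrays and as light red triangles for primary iPS minus day 16 of the same run; the labels give how many of each list limma called in each direction. The Dppa, cleavage-stage, germline and pluripotency lists lie furthest right, and the mesenchymal list lies furthest left, with its triangle at -2.52 and its dot at -0.97. The label of the cleavage-stage list names Zscan4, but no Zscan4 gene was among its 4 measured members.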

How the data were processed

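RNA was measured on Affymetrix mouse exon arrays, 1 per condition. The values, which the authors deposited on a log2 scale for each transcript cluster, were made with RMA in Affymetrix Expression Console on mm9, per the submitters' processing notes, which give no versions. RMA subtracts background, normalizes the arrays together and summarises probes, which compresses differences at low levels. No source states the log base, taken here as 2 from the range, 0.461 to 14.34. The submitters' design text speaks of polynomial smoothing in 6C, and no source used here states whether the deposited values were smoothed. Values were used as deposited, and the number of arrays limits precision.

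The platform annotation gave 14996 of 23332 clusters 1 gene symbol, 1019 several and 7317 none, and 14941 symbols were updated through RefSeq (GRCm38.p6). A gene with more than 1 cluster was read from its brightest cluster on average.

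With limma 3.58.1 (R 4.3.3), all 13 arrays were fitted in 7 groups (6 residual degrees of freedom) and iPS cells were contrasted with late Dox-treated 6C cells. Differences are iPS minus late Dox. Neither line nor run was a term in this fit. Tested on simulated data of 23332 clusters, it recovered 0 of 50 changes at log2 size 1, 27 at 2, 44 at 3 and 48 at 4, with 7 false calls. The simulation drew independent noise for each array and held no difference between runs. Its false calls therefore do not give the error rate of the real calls. Alternatives were other scalings, a low filter (mean of at least 6.55, 11666 clusters), 4 arrays only, 1B left out, trend and robust moderation, run as a block, and each array left out.

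The 29 gene lists, the comparison and the rules were chosen with earlier results of these data known. Named genes were the 12 called each way with the widest gap between groups, the 8 each way with the widest gap among those within 2-fold of untreated cells on the late arrays, the factors, up to 6 a list, and the 5 largest each way that lost their call without either iPS array. RIKEN and predicted names were left out. Other genes are named to complete a count, or as markers.

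Runs were read from array names. Those of the day 0 and day 8 arrays speak of another day, and the sample labels were followed. P-values measure only the spread between these arrays.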

Additional observations from a re-analysis of the deposited data

Results flagged for a closer look

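In 4 named genes the 2 iPS arrays moved in opposite directions from the late Dox-treated cells, each by over 2-fold. Gbp2, an interferon-induced GTPase, lay 2.08 above the late mean in secondary iPS cells and at -1.85 relative to it in primary iPS cells, a gap of 3.93. Gbp3, a related GTPase, lay 1.43 above and at -1.93, a gap of 3.36. Oasl2, an interferon-induced protein of the oligoadenylate synthetase family, lay 2.21 above and at -1.31, a gap of 3.52. Thbs2, a matrix protein of fibroblasts, lay 1.52 above and at -2.55, a gap of 4.06. With 1 array per sample, the difference between the secondary and the primary iPS cells was not tested, and none of these genes was called in the comparison of the groups. Over all clusters 13 ran this way and 8 the opposite way. Secondary iPS cells and the late arrays also came from different runs.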

How the results depend on the processing

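Among clusters, the 195 higher calls became 306 after quantile normalization, 122 without the 1B arrays, 0 with the 4 arrays alone, 0 with run as a block and 364 at an adjusted p under 0.10, and ranged from 19 to 152 when 1 array was left out. The 302 lower calls became 163 without 1B, 0 with the 4 arrays alone, 0 with run as a block and 568 at an adjusted p under 0.10, and ranged from 9 to 285 when 1 array was left out. Lowest adjusted p-values were 0.0524 with the 4 arrays alone and 0.0799 with the run block. Within run 2, with no test, 1885 clusters lay over 2-fold higher and 3215 lower. Centring, the low filter, and trend with robust moderation kept both counts within 1.5 times. Under the low filter the members changed more than the counts. Its 155 higher calls shared 74 with the 195, and its 435 lower calls shared 244 with the 302. Fewer arrays or fewer residual degrees of freedom enter by construction in the fits that left out arrays or added run; the cause of the other shifts was not tested. Of 71 named called genes, 69 kept their call after quantile normalization, 68 after centring, 71 with trend and robust moderation and 54 without 1B. The filter removed the others and left 47 of the 71, all 47 of which were called. Direction of the named called genes was the same in every alternative that held them. Of the clusters within 2-fold of the untreated mean on both late arrays and over 2-fold beyond them in both iPS arrays, the 196 higher became 83 under the filter, 65 at 3-fold and 34 at 4-fold, and the 247 lower became 47 at 3-fold and 11 at 4-fold. No paired analysis was possible because the labels give no replicate numbers and each condition has 1 array. A missed call at this number of arrays does not show that levels were alike, and genes near the array background are compressed.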
